A study of Mus musculus with 6 samples.

Results

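Expression of 10 genes of the matrix metalloproteinase (MMP) system was examined in macrophage preparations from infarcted mouse hearts with and without loss of α5 integrin in myeloid cells. The genes were taken by name from a count table of 54532 genes: 6 MMPs (Mmp2, Mmp9, Mmp12, Mmp13, Mmp14 and Mmp19), 3 tissue inhibitors of metalloproteinases (Timp1, Timp2 and Timp3) and the membrane-bound metalloproteinase Adam8. All 10 were found, each once, and all 10 passed the filter on low counts. The ITGA5 fl/fl group (n = 3) served as control and consisted of mice whose Itga5 gene, the source of the α5 integrin chain, carries loxP sites on both sides but is not recombined. The Myα5KO group (n = 3) consisted of littermates that carry the same alleles together with LyzM-Cre, a recombinase driven by the lysozyme M locus and active in myeloid cells, neutrophils included. In all mice, 12 weeks old, the left anterior descending artery was permanently tied off, and hearts were taken 7 days later. Hearts were digested individually, Ly6G-positive cells were removed on magnetic beads and CD11b-positive cells were kept. The presence of Cre and the loss of Itga5 cannot be told apart, because no group carried Cre without the floxed alleles.

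MMPs are zinc-dependent endopeptidases that are made as inactive proforms and cut collagens, elastin, fibronectin, growth factors and chemokines. TIMPs bind active MMPs tightly and block them, and TIMP2 also takes part in the activation of pro-MMP2 by MMP14 at the cell surface. In the infarcted heart these proteases and inhibitors act on removal of damaged matrix and on scar formation, and macrophages, neutrophils and fibroblasts are all known sources. MMPs are commonly grouped as gelatinases (MMP2 and MMP9), collagenases (MMP13 among them), the macrophage elastase MMP12, membrane-type MMPs (MMP14 among them) and others such as MMP19. ADAM8 belongs to a sister family of disintegrin metalloproteinases, found mainly on leukocytes, that cut cell-surface proteins.

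Library totals ranged from 15424451 to 18419287 counts, and 14522 genes were tested. Itga5, the targeted gene, was 607 ± 43.2 CPM (counts scaled to library depth with TMM factors) in controls against 48.7 ± 1.48 CPM in Myα5KO libraries (SD, n = 3 each), with edgeR adjusted p = 4.42e-12, in accord with the labels. Lyz2, the Cre locus, was 53.0% of the ITGA5 fl/fl level. All 10 macrophage markers were detected in every library, and their summed level was 17354 to 17567 CPM in controls against 15330 to 16169 CPM in Myα5KO libraries (exact permutation p = 0.1, the smallest that 3 against 3 allow). Most of this difference was Cd14, which fell from 4755 ± 160 to 3489 ± 239 CPM, while Fcgr1 rose from 195 ± 7.57 to 235 ± 8.49 CPM and the other 8, at 87.4% to 99.5% of control, did not pass the test. Transcripts of 14 fibroblast genes were also present, at a summed level of 1796 to 2104 CPM in controls and 1362 to 1747 CPM in Myα5KO libraries. In such bulk libraries fewer cells of a type and less RNA per cell cannot be told apart.

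AP-1, a dimer of Fos and Jun proteins, is a known regulator of several MMP promoters, and promoter sequence was therefore read for the members. RefSeq windows on GRCm38.p6, each from 250 bases before to 50 after a transcription start, were matched for 7 of the 10 genes (Adam8, Mmp12, Mmp13, Mmp14, Timp1, Timp2 and Timp3). The AP-1 letters TGANTCA, searched on both strands, occurred in windows of 2 members, Mmp13 and Mmp12, and in 7.81% of 32851 windows of the same length genome-wide. Of the 2 Mmp12 windows, only the second held them. Variants of these letters were not searched, so a window listed without them may still hold a related site. The 250 bases before the start are shown 5′ to 3′ on the gene's strand for these 2 genes and for Adam8, the changed member whose window was matched. Capitals mark the AP-1 letters. The Mmp13 window lies at chr9:7272264-7272513 (plus strand), the Mmp12 window, which belongs to the second of its 2 starts, at chr9:7347124-7347373 (plus strand), and the Adam8 window at chr7:139992563-139992812 (minus strand).
Mmp13: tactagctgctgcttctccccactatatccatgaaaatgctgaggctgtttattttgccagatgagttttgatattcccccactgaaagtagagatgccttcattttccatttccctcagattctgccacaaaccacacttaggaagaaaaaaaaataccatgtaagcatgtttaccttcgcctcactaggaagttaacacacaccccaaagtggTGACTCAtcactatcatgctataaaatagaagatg
Mmp12: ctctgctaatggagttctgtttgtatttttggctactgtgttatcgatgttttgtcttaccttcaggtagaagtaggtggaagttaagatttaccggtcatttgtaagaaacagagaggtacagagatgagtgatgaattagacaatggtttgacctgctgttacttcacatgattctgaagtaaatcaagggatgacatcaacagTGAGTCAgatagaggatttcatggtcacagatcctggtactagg
Adam8: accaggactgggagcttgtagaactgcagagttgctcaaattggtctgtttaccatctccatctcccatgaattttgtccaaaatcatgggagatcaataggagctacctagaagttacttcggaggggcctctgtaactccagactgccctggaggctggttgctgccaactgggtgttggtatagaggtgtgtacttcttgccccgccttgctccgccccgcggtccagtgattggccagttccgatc
The match began 35 bases before the start in Mmp13 (TGACTCA) and 44 bases before it in Mmp12 (TGAGTCA). The TATA box letters TATAAA, which were found in 13.6% of windows, began 16 bases before the start in Mmp13 and, in the Mmp12 window, at base 5 after the start, beyond the printed part. The Adam8 window held no TGANTCA and had the GC box letters GGGCGG on the opposite strand 35 bases before the start, letters found in 35.7% of windows and also in those of Mmp14, Timp1, Timp2 and Timp3. In the printed sequences the AP-1, TATA box and GC box letters did not overlap. Such matches describe the sequence only and are not evidence of binding.

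To see which members stood highest in these macrophage preparations, levels were compared as FPKM, a count divided by gene length in kilobases and by library depth. Fibroblast transcripts were also present, so the levels cannot be assigned to macrophages alone. Adam8 and Timp2 stood highest in control libraries, at 176 ± 12.2 and 174 ± 4.01 FPKM (SD, n = 3), and overlapped each other. Mmp14 followed at 81.7 ± 4.95, Mmp19 at 70.3 ± 1.11 and Mmp12 at 32.6 ± 2.43 FPKM, each apart from its neighbours in every library. Thus the best expressed proteases among the members were the surface enzymes Adam8 and Mmp14 and the secreted enzymes Mmp19 and Mmp12, while the gelatinases stood lower. Timp1 (21.6 ± 4.28 FPKM) overlapped Mmp9 (14.8 ± 2.75), and Mmp13 (10.2 ± 1.27) overlapped Mmp2 (9.91 ± 1.40). Timp3 was the lowest, at 3.98 ± 0.905 FPKM.

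In Myα5KO libraries Timp2 stood first, at 166 ± 11.5 FPKM, and no longer overlapped Adam8, which was at 133 ± 16.5 FPKM. The order of Mmp14, Mmp19 and Mmp12 was kept, at 74.1 ± 7.86, 44.9 ± 6.05 and 31.9 ± 3.24 FPKM. Mmp9 (19.3 ± 6.47) overlapped Timp1 (15.8 ± 2.80) with their means in the other order, and Mmp13 (10.4 ± 0.614), Mmp2 (9.85 ± 0.0285) and Timp3 (4.21 ± 0.166) closed the list. The summed FPKM of the 10 genes was 577 to 618 in controls against 467 to 536 in Myα5KO libraries, and Adam8 and Mmp19 were the members that differed most in it. Adam8 made up 29.5% ± 1.01 and 26.1% ± 1.45 of this sum, Mmp19 11.8% ± 0.322 and 8.79% ± 0.646, and Timp2 29.3% ± 0.365 and 32.6% ± 1.84.

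**Figure D1:**
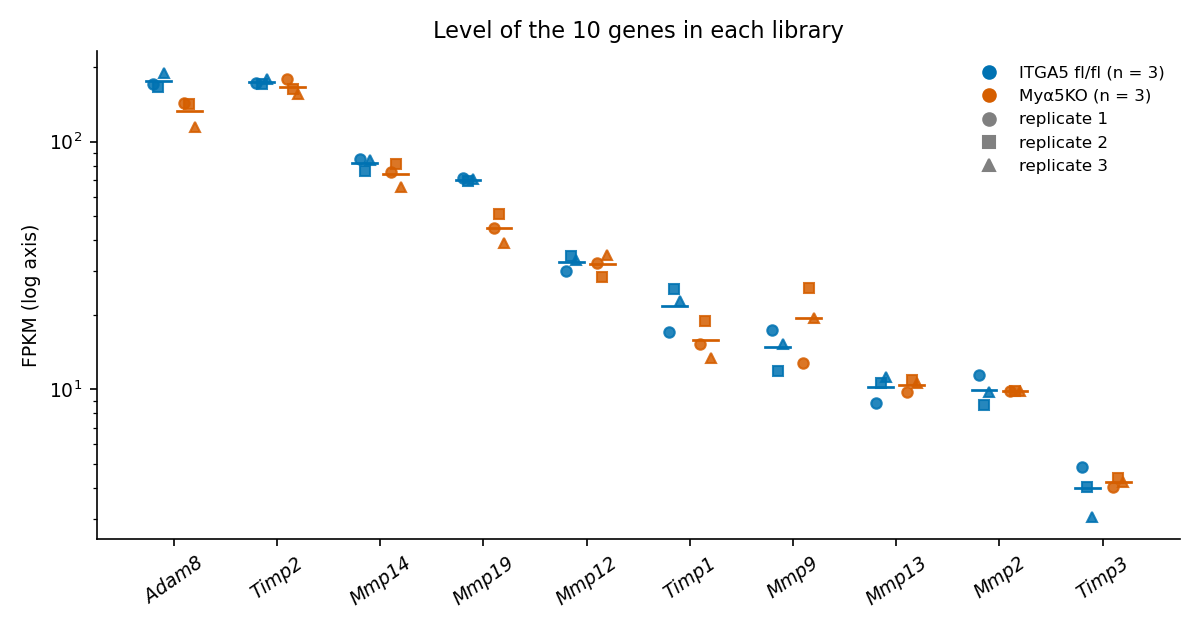
FPKM (log axis) of the 10 members in each library, ITGA5 fl/fl against Myα5KO, 1 point per library. Adam8 and Timp2 lie highest in both groups and Timp3 lowest, and only the Mmp19 and Adam8 points of the groups are fully separate.

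Loss of α5 integrin was accompanied by lower Mmp19 and Adam8 transcripts, whereas the other 8 members did not pass the test. With edgeR's quasi-likelihood test and Benjamini-Hochberg adjustment over all 14522 genes, 2 of 10 members were lower and 0 were higher at an adjusted p of 0.05 or less (called). Over all genes tested, 8.75% were called, 5.19% (754 genes) as lower and 3.56% (517 genes) as higher, a split that became 518 lower and 1212 higher with library totals as the only scaling. At an unadjusted p under 0.05 the count of members higher was also 0. DESeq2, which called 10.8% of the genes to which it gave an adjusted p, called 0 members higher and the same 2 lower, while edgeR with no count filter called 1 higher (Mmp9) and 3 lower. The median log2 fold change of the members was -0.05, against 0.01 over all genes tested. Groups did not overlap for 2 members, both lower in Myα5KO, where 13.8% of all genes were apart in that direction and 14.9% in the other.

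**Figure D2:**
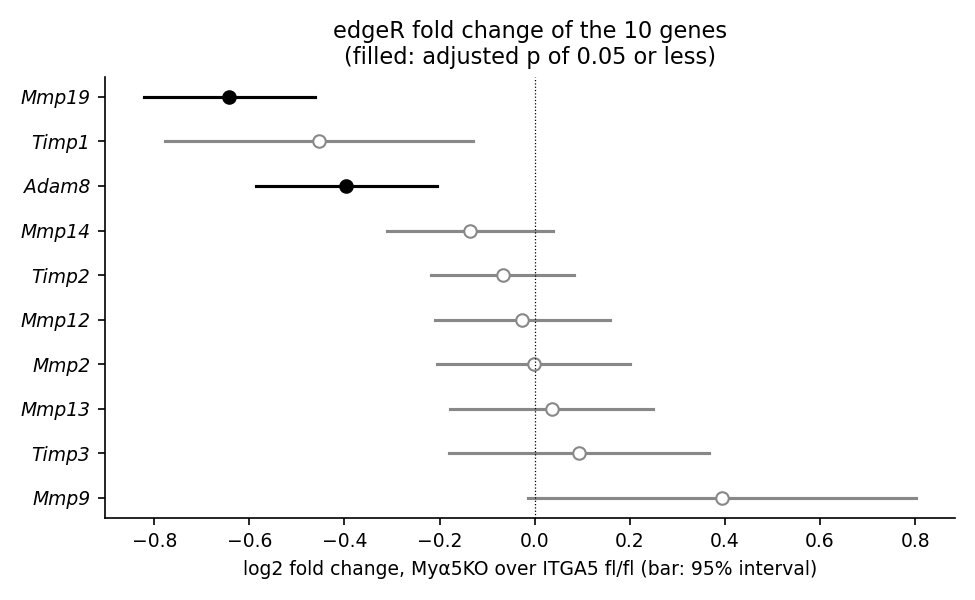
Log2 fold change, Myα5KO over ITGA5 fl/fl, of each member with its 95% confidence interval from edgeR. The intervals of Mmp19, Adam8 and Timp1 lie below 0, and of these Mmp19 and Adam8 passed the adjusted threshold.

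Mmp19 encodes a secreted MMP that cuts basement membrane components and lies on GRCm38 chromosome 10, 128790910 to 128800824, plus strand (ENSMUSG00000025355). Its level was 252, 246 and 251 CPM in the control libraries against 158, 181 and 140 CPM in the Myα5KO libraries. Every Myα5KO library lay well below every control library, and the ITGA5 fl/fl values differed from one another by no more than counting error would give (coefficient of variation 1.24%, against 1.56% from counts alone). The mean fell from 249 ± 3.09 to 160 ± 20.5 CPM (SD, n = 3 each), or to 64.1% of control. On the log2 scale this was a change of -0.64 (SE 0.08, 95% interval -0.82 to -0.46, edgeR adjusted p = 0.000581), and its p ranked 70 among the genes tested. Mmp19 passed the threshold in all 16 alternative settings. Of its 3533 exonic bases, 789 (22.3%) are shared with Tmem198b on the opposite strand, and the strand mode of counting is not given in the sources used here. Tmem198b had 258 to 338 counts per library, against 2667 to 4405 for Mmp19, and did not pass the test (log2 fold change -0.17, edgeR adjusted p = 0.290).

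Adam8 lies on GRCm38 chromosome 7, 139978932 to 139992562, minus strand (ENSMUSG00000025473). Its level was 797, 776 and 880 CPM in controls against 665, 661 and 538 CPM in Myα5KO libraries. The groups did not overlap, and the third library of each group stood farthest from the other two. The mean fell from 818 ± 55.3 to 622 ± 72.3 CPM (SD, n = 3 each), or to 76.0% of control. This gave a log2 fold change of -0.40 (SE 0.09, 95% interval -0.59 to -0.20, edgeR adjusted p = 0.0147). Adam8 passed the threshold in 13 of 16 alternative settings. Without control replicate 3 its log2 fold change was -0.34 with an edgeR adjusted p of 0.0799, and on log2(FPKM + 1) limma gave -0.40 with an adjusted p of 0.0740.

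The gelatinases degrade denatured collagen and basement membrane collagen, and their 2 genes had separate patterns. Mmp9 (GRCm38 chromosome 2, 164940780 to 164955850, plus strand), a gene of neutrophils as well as macrophages, was 61.3, 42.3 and 54.1 CPM in controls against 45.4, 91.4 and 70.1 CPM in Myα5KO libraries. The groups overlapped, since Myα5KO replicate 1 lay below 2 of the control libraries, and the Myα5KO values had a coefficient of variation of 33.4% where counting alone gives 2.78%. The means were 52.6 ± 9.61 and 69.0 ± 23.0 CPM (SD, n = 3 each), with a log2 fold change of 0.39 (SE 0.19, 95% interval -0.01 to 0.80, edgeR adjusted p = 0.235). This call depended on the setting. With no count filter Mmp9 passed at nearly the same log2 fold change (0.40, edgeR adjusted p = 2.98e-05). That setting also took the edgeR adjusted p of the fibronectin gene Fn1 from 0.0163 to 1.48e-19. The log2 fold change of Fn1 stayed at -0.73, so the Mmp9 pass reflects the setting. Without Myα5KO replicate 1 the log2 fold change of Mmp9 was 0.62 with an edgeR adjusted p of 0.0105, while without Myα5KO replicate 2 it was 0.13 (adjusted p = 0.710).

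The summed level of 11 neutrophil markers was 186 to 229 CPM in controls against 254 to 379 CPM in Myα5KO libraries (exact permutation p = 0.1, adjusted p = 0.15 over 9 marker lists), and 7 of the 9 that were tested were higher. These 7 were granule and S100 genes such as Ltf (4.43 ± 1.81 to 18.3 ± 7.17 CPM) and S100a9 (12.1 ± 4.50 to 35.3 ± 19.5 CPM). Csf3r, which macrophages also express, made up most of the sum (155 ± 16.6 and 169 ± 12.3 CPM) and did not pass the test, nor did Retnlg, with 4.81 ± 3.10 and 3.10 ± 0.287 CPM (log2 fold change -0.65, edgeR adjusted p = 0.311). The mature neutrophil markers Ly6g and Cxcr2 were too low to be tested, at 0.0196 and 0.0532 CPM and at 0.445 and 0.390 CPM. By library the neutrophil sum was 229, 186 and 200.5 CPM in controls, in the same order as the Mmp9 levels. This control order rests in part on Csf3r, which was 173, 150 and 141 CPM in these libraries. In Myα5KO libraries the sum was 308, 254 and 379 CPM, and replicate 2 had the highest Mmp9 level and the lowest neutrophil sum. The part of neutrophil transcripts in the Mmp9 level was not tested.

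Mmp2 (GRCm38 chromosome 8, 92827291 to 92853420, plus strand), a gelatinase made largely by fibroblasts, was 38.5, 29.3 and 33.0 CPM in controls against 33.2, 33.4 and 33.8 CPM in Myα5KO libraries. All Myα5KO values lay within the control range. The log2 fold change was -0.0021 (SE 0.09, edgeR adjusted p = 0.993), and its 95% interval left a Myα5KO level between 86.7% and 115% of control.

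**Figure D3:**
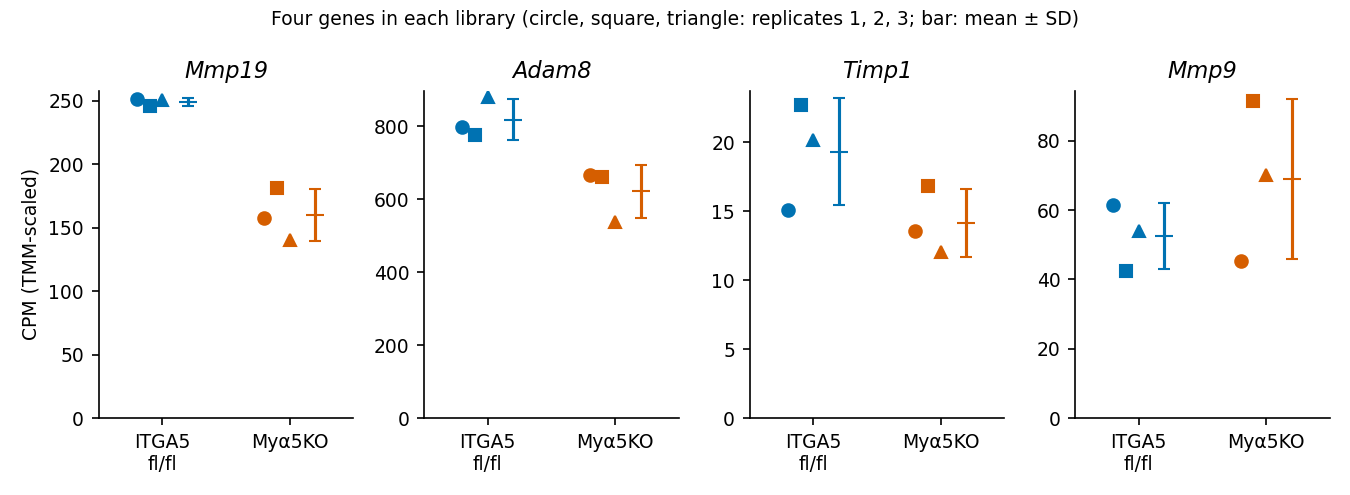
CPM of Mmp19, Adam8, Timp1 and Mmp9 in each library with the mean and SD of each group (n = 3). Mmp19 and Adam8 are separate between groups, while the Timp1 and Mmp9 points overlap.

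The remaining MMPs did not pass the test. Mmp14 (GRCm38 chromosome 14, 54431612 to 54445364, plus strand), the membrane-type enzyme that cuts fibrillar collagen and activates pro-MMP2, was 509, 457 and 501 CPM in controls against 451, 485 and 398 CPM in Myα5KO libraries. Its groups overlapped through Myα5KO replicate 2, and the log2 fold change was -0.14 (SE 0.08, 95% interval -0.31 to 0.04, edgeR adjusted p = 0.342). Mmp12 (GRCm38 chromosome 9, 7344381 to 7369499, plus strand), the macrophage elastase, was 217, 252 and 242 CPM in controls against 235, 207 and 257 CPM in Myα5KO libraries. These values were interleaved, and the log2 fold change was -0.03 ± 0.09 (SE), with an edgeR adjusted p of 0.890 and an interval from 86.5% to 112% of control. Mmp13 (GRCm38 chromosome 9, 7272514 to 7283331, plus strand), the main rodent interstitial collagenase, was 23.5, 28.6 and 30.0 CPM in controls against 26.1, 29.3 and 28.9 CPM in Myα5KO libraries. All Myα5KO values of Mmp13 again lay within the control range (log2 fold change 0.04, SE 0.10, edgeR adjusted p = 0.868, interval 88.4% to 119% of control). The 2 members whose promoter windows held AP-1 letters, Mmp12 and Mmp13, were among those that did not pass. The part of AP-1 in their levels was not tested.

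Mmp13 and Mmp12 are neighbours in a cluster of 10 MMP genes on GRCm38 chromosome 9 that spans 427072 bases, from the start of Mmp13 at 7272514 to the end of Mmp7 at 7699585. Most counts came from the 2 genes at the Mmp13 end. Mmp12 had 24950 counts over the 6 libraries and Mmp13 had 2951, followed by the neutrophil collagenase Mmp8 with 845 and Mmp27 with 588. Mmp3, Mmp10, Mmp1b and Mmp7 had 53, 46, 20 and 3 counts, and Mmp1a and Mmp20 had 0 counts in all 6 libraries, so these 6 genes were not tested. None of the 4 tested genes of the cluster passed the edgeR threshold, and Mmp8 alone had an unadjusted p under 0.05. Mmp12 shares 157 of its 7237 exonic bases with Mmp1b on the opposite strand, and Mmp1b had 0 to 12 counts per library.

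**Figure D4:**
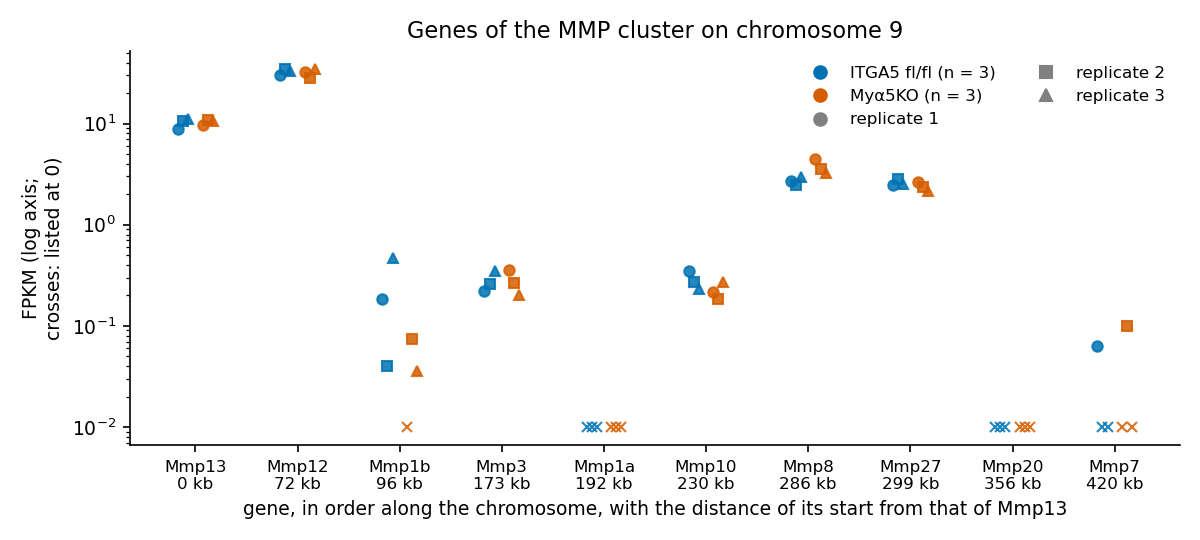
FPKM (log axis) of the 10 MMP genes of the chromosome 9 cluster in each ITGA5 fl/fl and Myα5KO library, with genes evenly spaced in chromosome order, the distance of each start from that of Mmp13 in kilobases below the name, and crosses for values listed at 0. Mmp12 is the highest, followed by Mmp13, Mmp8 and Mmp27, and the other genes lie lower or at 0.

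Among the inhibitors, Timp1 was the member nearest to the threshold. Timp1 (GRCm38 chromosome X, 20870166 to 20874735, plus strand), which is secreted and induced by cytokines, was 15.1, 22.7 and 20.1 CPM in controls against 13.6, 16.8 and 12.0 CPM in Myα5KO libraries. The groups overlapped because control replicate 1 lay below Myα5KO replicate 2. The means were 19.3 ± 3.87 and 14.1 ± 2.43 CPM (SD, n = 3 each), with a log2 fold change of -0.45 (SE 0.15, 95% interval -0.78 to -0.13, unadjusted p = 0.00955, edgeR adjusted p = 0.0810). The call depended on the setting. With all 6 libraries Timp1 passed with the replicate number as a block (log2 fold change -0.45, edgeR adjusted p = 0.0454). The labels do not say whether libraries of the same number share a day or litter. Timp1 also passed with no count filter (edgeR adjusted p = 0.00255), at the same log2 fold change of -0.45. That setting also lowered the adjusted p of other genes at an unchanged fold change. For Fn1 the edgeR adjusted p went from 0.0163 to 1.48e-19 at a log2 fold change of -0.73, so this pass reflects the setting. Without control replicate 1 the log2 fold change of Timp1 was -0.60 (edgeR adjusted p = 0.0216), and without Myα5KO replicate 2 it was also -0.60 (adjusted p = 0.0404), whereas without control replicate 2 it was -0.32 (adjusted p = 0.301). With 225 to 386 counts per library, Timp1 had the fewest counts of the members. The summed level of the fibroblast markers was also lower in Myα5KO libraries, though with library totals as scaling its ranges overlapped. By library this sum was 2104, 1796 and 1883 CPM in controls, where replicate 1 had the highest sum and the lowest Timp1 level. In Myα5KO libraries it was 1747, 1582 and 1362 CPM, and replicate 3 was lowest in both. The part of fibroblast transcripts in the Timp1 level was not tested.

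Timp2 and Timp3 did not pass the test. Timp2 (GRCm38 chromosome 11, 118301069 to 118355740, minus strand), the inhibitor that also bridges MMP14 and pro-MMP2, was 675, 673 and 699 CPM in controls against 697, 639 and 617 CPM in Myα5KO libraries. The groups overlapped, and the log2 fold change was -0.07 ± 0.07 (SE), with an edgeR adjusted p of 0.615 and an interval from 86.0% to 106% of control. Timp3 (GRCm38 chromosome 10, 86300372 to 86349506, plus strand), which is bound to matrix and also inhibits several ADAM proteases, was 39.7, 33.0 and 24.9 CPM in controls against 33.0, 35.7 and 35.1 CPM in Myα5KO libraries. All Myα5KO values of Timp3 lay within the wider control range (log2 fold change 0.09, SE 0.13, edgeR adjusted p = 0.717, interval 88.2% to 129% of control). Of its 8144 exonic bases, 1733 are shared with Syn3 on the opposite strand, which had 4 to 12 counts per library.

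Because TIMPs block MMPs, ratios of transcripts were read within each library, where scaling cancels out. The Mmp9 to Timp1 ratio of FPKM was 1.02, 0.468 and 0.673 in controls against 0.839, 1.36 and 1.46 in Myα5KO libraries. Its mean was 1.70 times the control mean, but Myα5KO replicate 1 lay below control replicate 1. The factor ranged from 1.44 to 2.14 when single libraries were left out. The Mmp14 to Timp2 ratio was 0.469 ± 0.0243 in controls against 0.447 ± 0.0427 in Myα5KO libraries, and the Mmp12 to Timp2 ratio was 0.187 ± 0.0145 and 0.193 ± 0.0270 (SD, n = 3 each). Both of these overlapped between groups. Ratios of transcripts are not ratios of active enzyme to inhibitor, since MMP activity depends on proform cleavage.

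Of 18 further MMP and TIMP genes, 9 had enough counts to be tested, 1 was higher, 0 were lower and the median log2 fold change was 0.24. Beside this list and those that follow, 5.19% of all genes tested were lower and 3.56% higher, with a median of 0.01. The lists were chosen with earlier results of these data known. The gene of this list that rose was Timp4, an inhibitor known from cardiac tissue, with 12, 12 and 5 counts in controls against 29, 30 and 40 counts in Myα5KO libraries. Timp4 changed from 0.598 ± 0.276 to 1.75 ± 0.307 CPM (log2 fold change 1.56, SE 0.37, edgeR adjusted p = 0.0184). Timp4 was named after its values were seen, and its call was lost without control replicate 3 (log2 fold change 1.21, edgeR adjusted p = 0.0848) and without Myα5KO replicate 3 (1.41, adjusted p = 0.0625). The summed level of 11 cardiomyocyte markers moved the other way (exact permutation p = 0.1). It was 24.0 to 26.3 CPM in controls and 15.4 to 19.5 CPM in Myα5KO libraries. Of the 9 cardiomyocyte markers that were tested, 3 were lower (Tnnt2, Actc1 and Ttn) and 6 did not pass. The part of cardiomyocyte transcripts in the Timp4 level was not tested. Mmp8, the best expressed of these genes per length, was 6.57, 5.99 and 7.23 CPM in controls against 10.9, 8.67 and 7.94 CPM in Myα5KO libraries. Groups did not overlap for Mmp8, but it did not pass the threshold (log2 fold change 0.47, SE 0.15, edgeR adjusted p = 0.0665), and the neutrophil markers, whose summed level is given above with that of Mmp9, moved the same way. Without Myα5KO replicate 3 the log2 fold change of Mmp8 was 0.57 with an edgeR adjusted p of 0.0444. By library the neutrophil sum was 229, 186 and 200.5 CPM in controls, where replicate 2 was lowest in both the sum and Mmp8. In Myα5KO libraries it was 308, 254 and 379 CPM, and replicate 3 had the highest sum and the lowest Mmp8 level. The part of neutrophil transcripts in the Mmp8 level was not tested.

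Among 20 tested ADAM and ADAMTS relatives, 3 were lower and 0 were higher (median log2 fold change -0.11). The sheddases Adam10 and Adam17, which release cytokines and receptors from the surface, did not pass (log2 fold changes 0.09 and 0.04, edgeR adjusted p = 0.493 and 0.772). Adamts9, a proteoglycan-cleaving enzyme, fell from 33.4 ± 3.43 to 19.2 ± 0.464 CPM (log2 fold change -0.79, SE 0.09, edgeR adjusted p = 0.000243) and passed in all 16 alternatives. The aggrecanase Adamts4 (log2 fold change -0.29, edgeR adjusted p = 0.0304) and the procollagen N-proteinase Adamts2 (log2 fold change -0.37, edgeR adjusted p = 0.0362) passed in 8 of 16 each. Adamts4 lost its call without control replicate 1 or 2 or any 1 Myα5KO library (log2 fold changes -0.33 to -0.22, edgeR adjusted p = 0.0514 to 0.110). Adamts2 lost it without control replicate 1 or 3 or any 1 Myα5KO library (-0.39 to -0.27, adjusted p = 0.0595 to 0.131). Both lost it with library totals as the only scaling, and with limma on log2(FPKM + 1) and log2(FPKM + 0.1). The summed fibroblast markers were 1928 ± 159 and 1564 ± 193 CPM (exact permutation p = 0.1), with 1 of 14, Postn, lower, and with library totals as scaling their ranges overlapped. The part of fibroblast transcripts in the level of Adamts2, which fibroblasts also express, was not tested.

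Of 13 tested genes whose products activate, anchor, carry or clear MMPs, 3 were lower and 1 was higher (median log2 fold change -0.12). Plaur, the receptor that holds the plasmin-generating enzyme urokinase on the cell surface, fell from 471 ± 16.6 to 309 ± 5.49 CPM (log2 fold change -0.61, SE 0.06, edgeR adjusted p = 0.000153) and passed in all 16 alternatives, while the urokinase gene Plau did not pass (444 ± 29.1 and 419 ± 73.6 CPM). Cd44, a hyaluronan receptor that can hold MMP9 and MMP14 at the surface, fell from 1091 ± 31.0 to 838 ± 82.1 CPM (log2 fold change -0.38, edgeR adjusted p = 0.0104), a call lost without control replicate 3 (-0.36, adjusted p = 0.0525). Furin, the convertase that activates pro-MMP14, fell from 635 ± 30.8 to 510 ± 43.6 CPM (log2 fold change -0.32, edgeR adjusted p = 0.0224), a call that was lost with library totals as scaling and without control replicate 1 or replicate 3 (-0.29 and -0.31, adjusted p = 0.0756 and 0.0828). The gene that rose, Lcn2, encodes a neutrophil granule protein that binds MMP9. Lcn2 was 2.35, 2.11 and 2.67 CPM in controls against 7.67, 3.37 and 10.8 CPM in Myα5KO libraries (log2 fold change 1.61, SE 0.33, edgeR adjusted p = 0.00945) and was named after its values were seen. It moved with the neutrophil markers, whose part in the Lcn2 level was not tested. With limma on log2(FPKM + 1) and log2(FPKM + 0.1) the calls of Cd44, Furin and Lcn2 were also lost.

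Of 13 matrix proteins that MMPs cut, 3 were lower and 0 were higher, with a median log2 fold change of -0.12. Fn1, fibronectin and the main ligand of α5β1 integrin, was 2446, 4042 and 3653 CPM in controls against 2442, 2061 and 1593 CPM in Myα5KO libraries. Control replicate 1 and Myα5KO replicate 1 lay next to each other at the boundary between the groups. The log2 fold change of Fn1 was -0.73 (SE 0.17, edgeR adjusted p = 0.0163), and its call was lost with DESeq2 and without control replicate 2 or replicate 3 (-0.59 and -0.68, adjusted p = 0.0781 and 0.0712). Eln, the elastin precursor, fell from 198 ± 17.3 to 133 ± 24.4 CPM (log2 fold change -0.57, edgeR adjusted p = 0.00584). Lamc1, a laminin chain of basement membrane, fell from 232 ± 10.8 to 183 ± 22.1 CPM (log2 fold change -0.34, edgeR adjusted p = 0.0229) and did not pass with library totals as scaling, without any 1 control library or without Myα5KO replicate 2 (-0.37 to -0.31, adjusted p = 0.0543 to 0.0739). With limma on log2(FPKM + 1) and log2(FPKM + 0.1) the calls of Fn1, Eln and Lamc1 were also lost. These 3 genes are also made by fibroblasts, whose summed markers were lower in Myα5KO libraries, though with library totals as scaling their ranges overlapped. Of the 14 fibroblast markers, 1 (Postn) passed the test. By library the fibroblast sum was 2104, 1796 and 1883 CPM in controls, the reverse of the Fn1 order. In Myα5KO libraries it was 1747, 1582 and 1362 CPM, the same order as Fn1. The part of fibroblast transcripts in the levels of these 3 genes was not tested.

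Of 21 cytokines and transcription factors known to act on MMP and TIMP genes, all of them tested, 8 were lower and 2 were higher (median log2 fold change -0.14). Over all genes tested, 5.19% were lower and 3.56% higher, a split that reversed with library totals as scaling (518 genes lower, 1212 higher). Il10, Il1a and Il6 were among the lower genes, with log2 fold changes of -1.12, -1.33 and -0.95 (edgeR adjusted p = 5.6e-05, 0.000272 and 0.0039). The study describes several of these cytokines in the same libraries, so their direction is not independent evidence. Nfkb1, an NF-κB subunit precursor, fell from 687 ± 26.5 to 427 ± 49.4 CPM (log2 fold change -0.69, edgeR adjusted p = 0.000359). Among AP-1 genes the directions differed. Fosl1 fell from 14.7 ± 2.65 to 6.75 ± 1.04 CPM (log2 fold change -1.12, SE 0.16, edgeR adjusted p = 0.000862). Fos and Fosb, named after their values were seen, rose (log2 fold changes 0.55 and 0.41, edgeR adjusted p = 0.00987 and 0.0204), and both calls were lost without control replicate 3 (0.49 and 0.36, adjusted p = 0.0593 and 0.102), that of Fosb also without Myα5KO replicate 2 (0.39, adjusted p = 0.0591). With limma on log2(FPKM + 1) and log2(FPKM + 0.1) the calls of Fos, Fosb and Il6 were lost. Mmp12 and Mmp13, whose promoter windows carry AP-1 letters, had log2 fold changes of -0.03 and 0.04. No window was matched for Mmp2, Mmp9 or Mmp19, and the part of AP-1 in the level of any member was not tested.

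**Figure D5:**
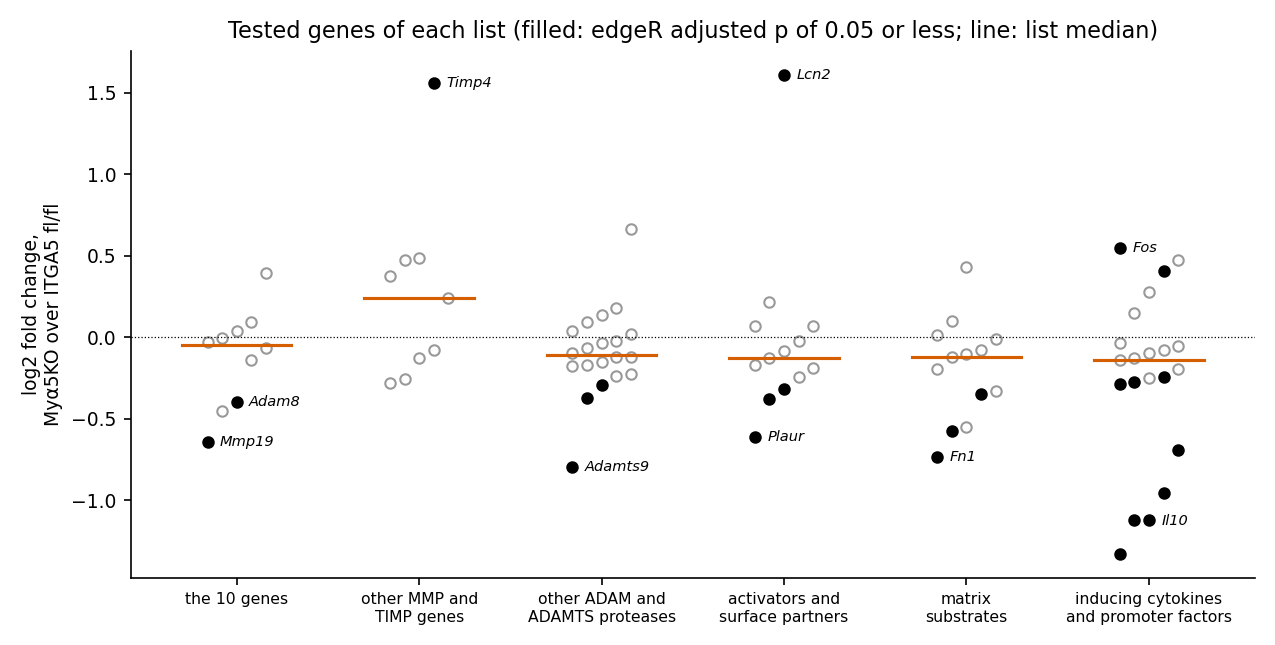
Log2 fold change of every tested gene of the members and of 5 related lists, 1 point per gene, with genes that passed the edgeR threshold filled and the median of each list drawn. The member median is -0.05, and the lowest median, -0.14, is that of the inducing cytokines and promoter factors.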

How the data were processed

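After cleaning of the 150-base read pairs, the authors mapped them to GRCm38 with TopHat2 2.0.9, and HTSeq 0.6.1 gave counts per gene. The deposited counts are whole numbers without normalization, and how strand and multi-mapped reads were treated is not given in the sources used here. The authors also deposited FPKM values, in which each value equals the count divided by gene length and a constant of the library. FPKM was used for levels between genes, for ratios and in 2 alternatives.

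Counts were tested with edgeR 4.0.16 (quasi-likelihood, TMM factors, default filter with minimum count 10 and minimum total count 15) in R 4.3.3, with no covariate, for Myα5KO over ITGA5 fl/fl. P-values are two-sided and Benjamini-Hochberg adjusted over the 14522 genes tested, with a threshold of 0.05. For marker sums, an exact permutation test (two-sided) was used. Individual hearts gave the libraries. Intervals cover counting error and the spread between libraries, and thus between hearts. Reads carry no molecular identifiers, so counts are of read pairs rather than molecules. Alternatives were DESeq2 1.42.0, limma-voom (limma 3.58.1), limma with trend on log2(FPKM + 1) and log2(FPKM + 0.1) where 3 or more libraries reached an FPKM of 1, scaling by median ratio, by upper quartile or by library size, dropping the count filter, 10 counts in every library, the replicate number as a block and each library left out in turn. Fold changes on log2(FPKM + pseudocount) understate changes of low genes.

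The members and gene lists were chosen with earlier results of these data known. All 10 members are named, with Itga5 and Lyz2. Of each related list, genes with an adjusted p of 0.05 or less and on average 100 counts or more are named, at most 5 by smallest p, or else the gene with the highest mean FPKM. Genes given for their function without a change (Adam10, Adam17, Plau, Tmem198b) and those of the chromosome 9 cluster were added later. Of marker lists, genes are named where the list moved with a member. Promoter windows came from RefSeq on GRCm38.p6. Statistical scripts were tested on simulated data.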

Additional observations from a re-analysis of the deposited data

How the results depend on the processing

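Mmp19 was lower and past the threshold in every one of 16 alternatives (log2 fold change -0.75 to -0.56), and Adam8 in 13 of 16 (-0.45 to -0.30). Adam8 missed it with limma on log2(FPKM + 1) and log2(FPKM + 0.1) (adjusted p 0.0740 and 0.0753) and without ITGA5 fl/fl replicate 3. Timp1 passed with no count filter, with the replicate block and without ITGA5 fl/fl replicate 1 or Myα5KO replicate 2, and Mmp9 passed with no count filter and without Myα5KO replicate 1. No alternative turned the direction of a called result. The counts of calls moved as follows, and the cause was not tested except where fewer genes or libraries entered the test.

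With limma on log2(FPKM + 1), 150 genes were higher and 322 lower, against 517 and 754 in the main test, and with log2(FPKM + 0.1) 142 and 306. In both, 1 member, 1 ADAM relative and 1 activator were lower, 0 activators, 0 other MMP or TIMP genes and 0 inducing genes were higher, 0 substrates were lower, and 4 inducing genes were lower. Library-size scaling, which moved the median log2 fold change of all genes from 0.01 to 0.10, called 1212 genes higher and 518 lower. Under it 3 other MMP and TIMP genes and 1 substrate were higher, 1 ADAM relative and 5 inducing genes were lower, and the macrophage marker sum differed by -777 CPM in place of -1708. With no count filter 798 genes, 1 member, 3 other MMP and TIMP genes, 1 substrate and 4 inducing genes were higher and 5 substrates were lower. DESeq2, which gave no adjusted p for Timp4, and a minimum of 10 counts in every library, which left Timp4 untested, called 0 other MMP and TIMP genes higher.

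When each library was left out in turn, 187 to 420 genes were higher and 429 to 671 lower. Among members 0 to 1 were higher and 1 to 3 lower, and 0 to 2 other MMP and TIMP genes were higher. Counts of lower genes were 1 to 2 for ADAM relatives, 1 to 3 for activators, 1 to 3 for substrates and 5 to 7 for inducing genes, and counts of higher genes were 0 to 1 for substrates and 0 to 4 for inducing genes.

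Libraries with the same replicate number were not paired in the main test, and the labels do not say whether they share a day or litter. Their deviations from the group means correlated at 0.05, -0.06 and 0.04, and not every library correlated best with its own number. These weak correlations do not settle whether the libraries are paired. With the replicate block 1181 genes were called, 3 members (Timp1 in addition, adjusted p 0.0454) and 5 substrates were lower. Timp4 rested on 5 to 40 counts per library, and 6 genes of the chromosome 9 cluster had too few counts to be tested.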
